A study of Ovis aries with 12 samples.

Results

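The water channels AQP1, AQP3, AQP4, AQP5, AQP8, AQP9 and AQP11 and the chloride channel CFTR were followed in the oviduct isthmus of ewes. These 8 genes were taken as a list of water and ion channels with a possible part in luminal fluid, and the transcripts assigned to each gene by accession were summed to 1 value per gene and library. A transcript was assigned for 7 of the 8 genes, out of 10771 genes with at least 1 assigned transcript in the table. AQP3, an aquaglyceroporin, had no assigned transcript and is not analysed here.

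The isthmus is the narrow segment of the oviduct next to the uterus, and whole isthmus tissue of 12 Small-Tailed Han ewes was sequenced, 1 library per ewe. MF ewes carried the FecB BB genotype, homozygous for the FecB fecundity mutation, and were sampled in the follicular phase, 45 to 48 h after removal of a progesterone device (CIDR). ML ewes were FecB BB in the luteal phase, on day 9 after removal, wF ewes were FecB ++ (wild type) in the follicular phase, and wL ewes were FecB ++ in the luteal phase, with 3 ewes in each group. All ewes were 2.5 ± 0.5 years old and had carried the device for 12 days, so both phases followed synchronization and neither was a spontaneous cycle. The comparisons asked whether the channels differed between phases and between genotypes.

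Aquaporins are membrane channels that let water follow the osmotic gradient set up by salt transport, and the aquaglyceroporins among them also pass glycerol and other small solutes. CFTR is a cAMP-gated channel in the apical membrane of epithelia that releases chloride and bicarbonate, and its failure dries the secretions of many ducts. Oviductal fluid, formed by the epithelium and from the blood vessels beneath it, bathes gametes and early embryos, and its volume is known to be greatest around oestrus.

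Values are FPKM, the fragments of a transcript scaled to its length and to the size of the library, so levels of different genes can be set side by side per unit of transcript length. In the 12 libraries the FPKM summed to 349733 to 456531 over all transcripts, and the fragments behind each value are not known. Libraries ML2, ML3, wF2 and wL2 stood apart from the other 8. Their summed level of 7 smooth muscle markers was 3004 to 6290 FPKM, against 418 to 1917 FPKM in the other 8, while 12 ciliated cell markers summed to 9.57 to 194 FPKM, against 335 to 624 FPKM, and 5 secretory epithelium markers summed to 126 to 491 FPKM, against 1248 to 3800 FPKM. SPP1, 1 of the 5, weighed heavily in this last sum, at 2.31 to 131 FPKM in the 4 libraries and 566 to 3031 FPKM in the other 8. EPCAM also separated the 4 from the 8, while the secretory markers KRT8, WFDC2 and CLDN3 overlapped between them. No smooth muscle or secretory marker was at 0 in any library, and SPAG6, a ciliated cell marker, was listed at 0 in ML3. HOXA10, 1 of 6 paired HOX genes of the tract, was 11.5 to 57.5 FPKM in the 4 libraries that stood apart. It was at most 1.05 FPKM in the other 8. HOXA9 was 9.86 to 40.9 FPKM in the 4 and at most 0.784 FPKM in the 8. HOXD8 also separated them, while HOXA5, HOXA11 and HOXD10 did not. Whether the place sampled along the tract differed was not tested. In whole tissue, fewer cells of a type and less RNA per cell cannot be told apart. Values without these 4 libraries stand beside the changes described gene by gene.

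AQP9, AQP5 and AQP1 were the abundant channels of the isthmus. Their mean levels over 12 libraries were 120 FPKM for AQP9, 104 FPKM for AQP5 and 98.7 FPKM for AQP1, which placed them at ranks 269, 309 and 328 of 10771 genes. AQP4 averaged 6.46 FPKM, CFTR 2.11 FPKM, AQP11 0.296 FPKM and AQP8 0.0398 FPKM, at ranks 4889, 6671, 8183 and 9191. Among the 3 abundant genes AQP1 varied least, with an SD of 0.75 on the log2 scale over the 12 libraries, against 2.27 for AQP5 and 2.78 for AQP9. The means of these 3 genes differed by far less than the range of any of them over the libraries.

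The 6 measured aquaporins together summed to 84.1 FPKM in ML3, the lowest library, and to 598 FPKM in wL1, the highest. AQP5 was the leading aquaporin in MF1, MF2, MF3, wF1 and wF3, with 38.4 to 62.2% of the sum. AQP9 led in ML1, ML2, wL1 and wL3, with 40.9 to 69.7%. AQP1 led in ML3, wF2 and wL2, with 98.5%, 69.0% and 60.8%. In the follicular phase AQP5 thus led in 5 of 6 libraries, and in the luteal phase AQP9 led in 4 of 6. The 3 libraries led by AQP1 are among the 4 with high smooth muscle markers.

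**Figure D1:**
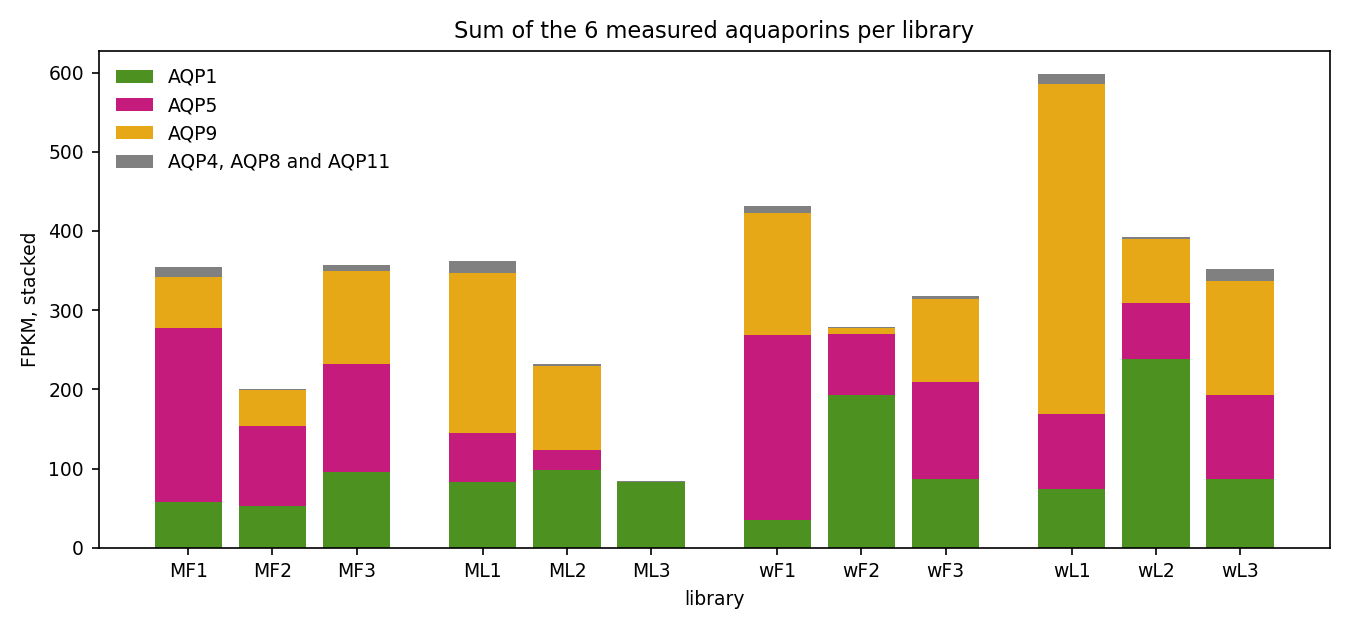
Stacked FPKM (y axis) of AQP1, AQP5, AQP9 and the other measured aquaporins in each of the 12 libraries (x axis, MF, ML, wF and wL). The sum was lowest in ML3 (84.1 FPKM, nearly all AQP1) and highest in wL1 (598 FPKM, mostly AQP9).

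AQP5, the water channel of the apical membrane in many secretory glands, had the smallest p of the tested members between MF and ML and between the pooled phases, and the largest between wF and wL. Its level was 220, 100.5 and 137 FPKM in MF1, MF2 and MF3, against 61.6, 24.7 and 0.52 FPKM in ML1, ML2 and ML3. All MF libraries lay above all ML libraries, and ML3 lay far below every other library of the study. In FecB ++ ewes the level was 233, 77.7 and 123 FPKM in wF1, wF2 and wF3, against 94.1, 70.4 and 106 FPKM in wL1, wL2 and wL3. These groups overlapped, since wF2 was below wL1 and wL3.

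AQP5 averaged 153 ± 61.4 FPKM in MF and 28.9 ± 30.8 FPKM in ML (SD, n = 3 each), and 145 ± 80.0 FPKM in wF and 90.2 ± 18.2 FPKM in wL (SD, n = 3 each). In order of the group means MF was followed by wF, wL and ML, of which MF, wF and wL lay within their spread. Changes were tested with limma on log2(FPKM + 0.1) across 8676 genes with a mean of at least 0.1 FPKM, and calls needed a log2 change of 1 or more in either direction with an adjusted p (Benjamini-Hochberg over all of them) under 0.05. On that scale, which understates the change of low genes, AQP5 differed between MF and ML by 3.88 (SE 1.32, 95% confidence interval 0.95 to 6.81), with a limma p of 0.0143 and an adjusted p of 0.116, so it was not called. Without ML3 the difference was 1.89 (SE 0.52, adjusted p 0.133, limma). Without ML2, ML3, wF2 and wL2 it was 1.23 (SE 0.50, adjusted p 0.253, limma), with ML1 alone in its group and taken to vary like the rest.

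Between wF and wL the change of AQP5 was 0.56 (SE 1.32, adjusted p 0.914, limma), with an interval of −2.37 to 3.48, and 0.76 without the 4 libraries. The difference between the phase changes of the 2 genotypes was 3.33 (SE 1.87, adjusted p 0.403, limma), so a difference in response between BB and ++ ewes was not shown. It was 0.47 without the 4 libraries. Pooled over genotypes, the AQP5 change between the follicular and the luteal phase was 2.22 (SE 0.93, unadjusted p 0.0381, adjusted p 0.222, limma), and 0.996 (SE 0.33, adjusted p 0.191, limma) without the 4 libraries. The direction was the same in all 21 alternative analyses of this comparison, none of which called it.

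In the luteal phase alone, every ML library held less AQP5 than every wL library, with a change of −3.18 (SE 1.32, interval −6.11 to −0.25, unadjusted p 0.0361, adjusted p 0.380, limma). It was −1.19 without ML3 and −0.70 without the 4 libraries. With a smooth muscle covariate, added after seeing the data, it was −2.003 (SE 1.28, unadjusted p 0.150, adjusted p 0.636, limma). ML3 held 9.57 FPKM of ciliated cell markers and 126 FPKM of secretory markers, the lowest sums of all libraries. How much of the low AQP5 in ML3 goes with that composition was not tested.

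The 2 AQP5 transcripts kept a nearly fixed split. XM_012159416.2 held 59.0 to 65.3% of the gene's FPKM in 11 libraries, NM_001009273.2 held the rest, and in ML3, where the gene was near 0, XM_012159416.2 held all of it. Libraries of all 4 groups lay within these bounds.

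AQP9, an aquaglyceroporin that passes water, glycerol and urea, had the widest range of the abundant members. Its level was 64.5, 45.6 and 117 FPKM in MF1, MF2 and MF3, against 202, 106 and 0.195 FPKM in ML1, ML2 and ML3. In ++ ewes it was 155, 7.39 and 105 FPKM in wF1, wF2 and wF3, against 417, 81.4 and 144 FPKM in wL1, wL2 and wL3. Luteal libraries held both the highest value (wL1) and the lowest (ML3), and all 4 groups overlapped.

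The AQP9 group means were 75.7 ± 37.1 FPKM in MF and 103 ± 101 FPKM in ML, and 89.1 ± 75.0 FPKM in wF and 214 ± 178 FPKM in wL (SD, n = 3 each). No 2 neighbours in the order wL, ML, wF and MF differed beyond their spread. The mean was lower in MF than in ML, while the fitted change had the other sign, at 1.92 (SE 2.11, adjusted p 0.585, limma). Without ML3 it was −1.06, and without all 4 libraries it was −1.53. The change was −1.77 (SE 2.11, adjusted p 0.833, limma) between wF and wL and −3.20 (SE 2.11, adjusted p 0.467, limma) between ML and wL, and −0.94 and −0.27 without the 4 libraries.

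Pooled over genotypes, AQP9 differed between the follicular and the luteal phase by 0.07 (SE 1.50, adjusted p 0.985, limma). Without ML2, ML3, wF2 and wL2 the log2 change was −1.23 (SE 0.46, unadjusted p 0.0353, adjusted p 0.231, limma), which was not called. The sign of the AQP9 change thus turned with these 4 libraries. AQP9 is also known from neutrophils and macrophages, of which 7 markers summed to 13.0 to 32.7 FPKM, with the neutrophil receptor CXCR2 at 0.199 to 0.688 FPKM, while AQP9 was 45.6 FPKM or more in 10 of the 12 libraries. The library with the highest AQP9, wL1, held 22.5 FPKM of these markers, and their part in AQP9 was not tested.

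**Figure D2:**
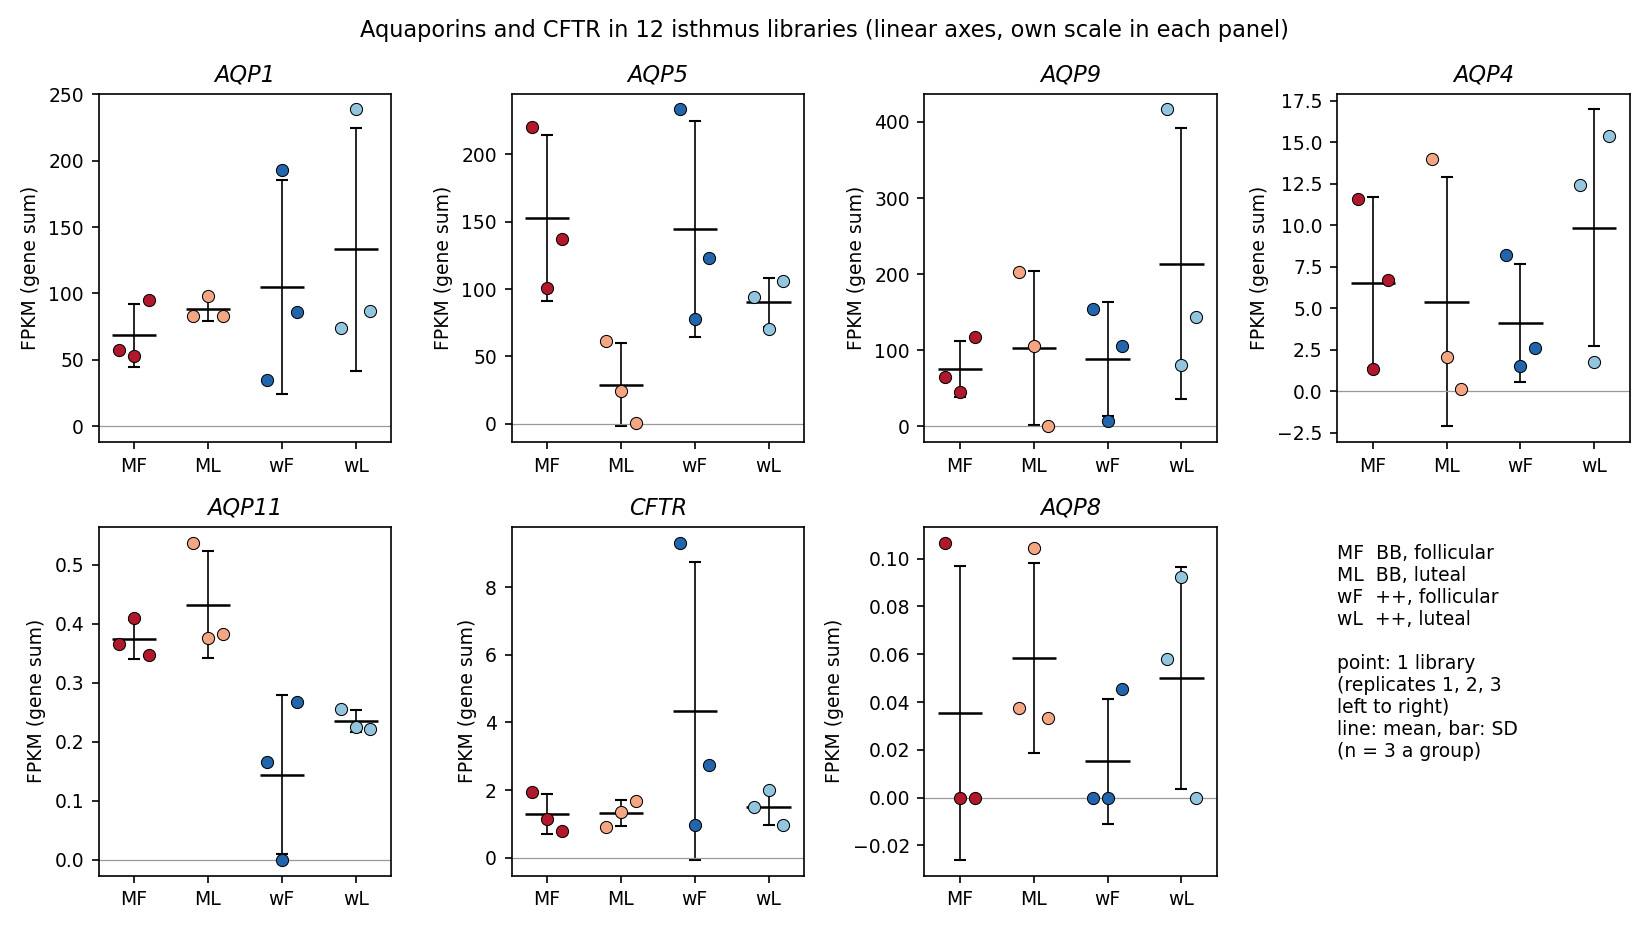
FPKM per gene (y axis, linear, 1 panel per gene) in the MF, ML, wF and wL groups, with 1 point per library, the mean as a line and the SD as a bar (n = 3). AQP5 lay at 100.5 FPKM or more in all MF libraries and at 61.6 FPKM or less in all ML libraries, and AQP11 was higher in all 6 BB libraries than in all 6 ++ libraries.

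Within a library, AQP9 and AQP5 took different sides in the 2 phases. The ratio of AQP9 to AQP5 was 0.293, 0.454 and 0.856 in MF, against 3.28, 4.29 and 0.375 in ML, with replicates in order. It was 0.663, 0.0952 and 0.853 in wF, against 4.42, 1.16 and 1.36 in wL. The ratio was below 1 in all 6 follicular libraries and above 1 in 5 of 6 luteal libraries, the exception being ML3, in which both genes were near 0. This ratio was chosen after the values had been seen and is given as a description with no test.

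EPCAM, an adhesion protein of epithelial cells, served as a level for the amount of epithelium. The ratio of AQP9 to EPCAM was 0.178, 0.132 and 0.290 in MF, against 0.678, 0.699 and 0.00275 in ML, and 0.321, 0.0379 and 0.291 in wF, against 0.877, 0.539 and 0.432 in wL. Apart from ML3, every luteal library lay above every follicular one in this ratio, ML2 and wL2 included. Of the other secretory epithelium markers, this order held with SPP1 but not with KRT8, WFDC2 or CLDN3. KRT8 was 121 FPKM in wF3 and 120 FPKM in wL2, where AQP9 was 105 and 81.4 FPKM. CLDN3 was 28.1 FPKM in wF1 and 29.7 FPKM in wL2, where AQP9 was 155 and 81.4 FPKM. WFDC2 was 46.3 FPKM in wF1 and 115 FPKM in ML1, where AQP9 was 155 and 202 FPKM. The order of the phases in the AQP9 ratio is thus tied to the marker chosen. The ratio of AQP5 to EPCAM was 0.609, 0.292 and 0.339 in MF, against 0.207, 0.163 and 0.00732 in ML, and 0.484, 0.399 and 0.341 in wF, against 0.198, 0.465 and 0.318 in wL. MF and ML did not overlap in this ratio, and wF and wL did. Like the ratio above, both were chosen with the values known and were not tested.

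**Figure D3:**
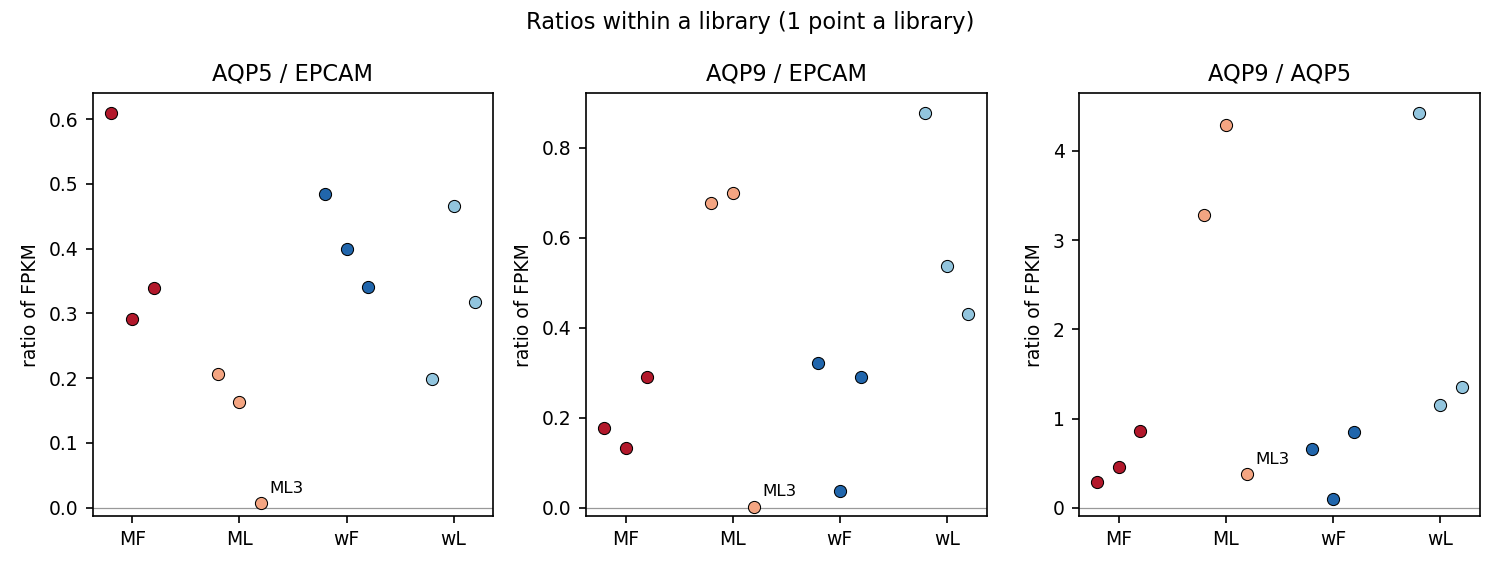
Ratios of FPKM within each library (y axis, linear) of AQP5 to EPCAM, AQP9 to EPCAM and AQP9 to AQP5 in the MF, ML, wF and wL groups (x axis), with 1 point per library. AQP9 over AQP5 was 0.856 or less in all follicular libraries and 1.16 or more in all luteal libraries other than ML3 (0.375).

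AQP1 is the water channel of red cells and of the lining of small vessels. Its level was 57.3, 52.7 and 95.5 FPKM in MF1, MF2 and MF3, against 83.3, 98.4 and 82.9 FPKM in ML1, ML2 and ML3. In ++ ewes it was 35.2, 193 and 86.3 FPKM in wF1, wF2 and wF3, against 74.2, 239 and 86.6 FPKM in wL1, wL2 and wL3. wF2 and wL2 were the highest, and the other 10 libraries held 35.2 to 98.4 FPKM, with both genotypes and phases among them. These 2 also had endothelium markers (7 genes) at 140 and 131 FPKM, against 63.0 to 133 FPKM in the other 10, and 3 red cell markers summed to 0.777 FPKM in wL2 and to 0.099 FPKM in wF2, against 0 to 0.423 FPKM in the other 10. The part of these markers in AQP1 was not tested.

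Pooled over genotypes the AQP1 change between follicular and luteal ewes was −0.44 (SE 0.41, adjusted p 0.589, limma), with an interval of −1.35 to 0.48, and it was also −0.44 without the 4 libraries. Between BB and ++ ewes it was −0.37 (SE 0.41, adjusted p 0.994, limma), and 0.16 without the 4 libraries. The group means were 68.5 ± 23.5 FPKM in MF, 88.2 ± 8.86 FPKM in ML, 105 ± 80.4 FPKM in wF and 133 ± 91.6 FPKM in wL (SD, n = 3 each), and no neighbours in this order differed beyond their spread. In ML3, in which AQP5, AQP9 and AQP4 were each at their lowest, AQP1 was 82.9 FPKM, against a median of 84.8 FPKM over all libraries.

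PECAM1, an adhesion protein of endothelial cells, gives a level for vessels. The ratio of AQP1 to PECAM1 was 4.17, 4.40 and 3.60 in MF, against 2.73, 2.13 and 2.93 in ML, and 2.13, 3.97 and 3.67 in wF, against 4.98, 5.06 and 5.20 in wL. With this marker, all wL libraries lay above all other libraries, and all ML libraries lay below all MF libraries. The 7 endothelium markers did not move together. PECAM1 was 13.7, 12.0 and 26.5 FPKM in MF, against 30.5, 46.1 and 28.3 FPKM in ML. EMCN, another of them, was 30.1, 63.5 and 30.5 FPKM in MF, against 20.5, 27.7 and 9.89 FPKM in ML. The order of the groups in the ratio is thus tied to the marker chosen. Like the other ratios it is a description with no test.

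**Figure D4:**
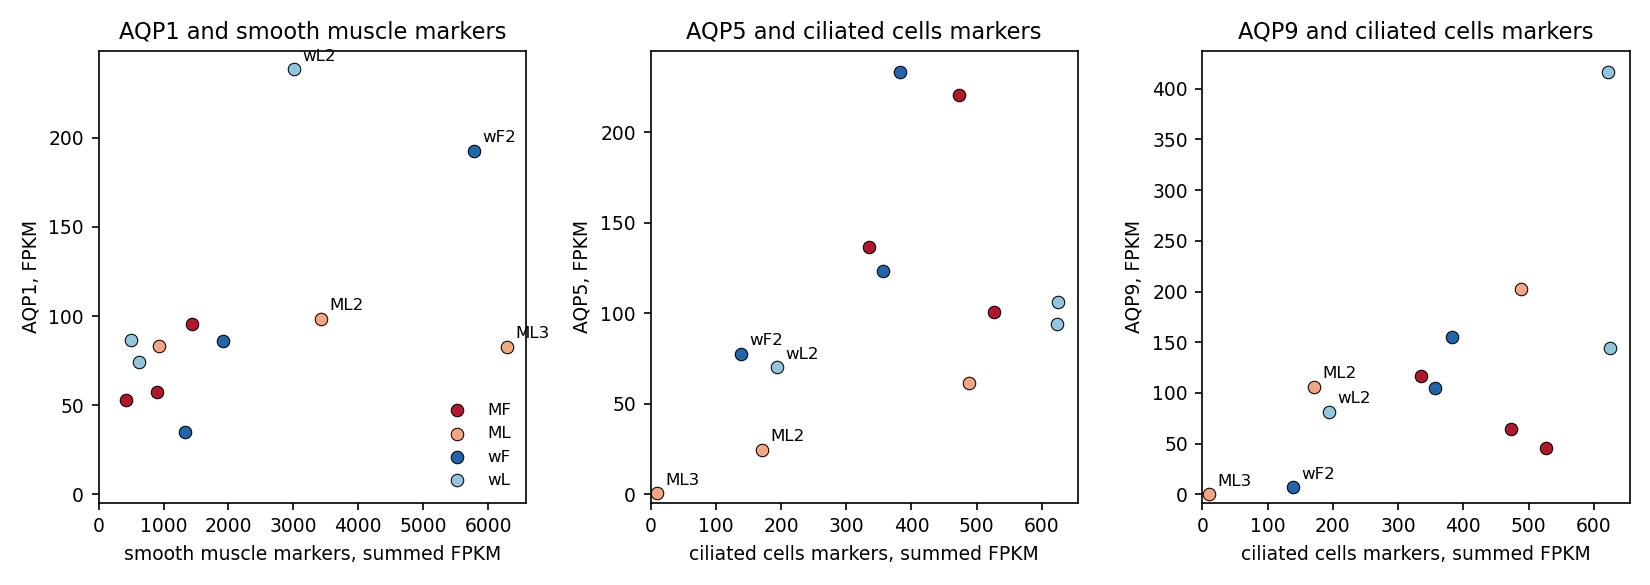
AQP1 against summed smooth muscle markers and AQP5 and AQP9 against summed ciliated cell markers (both axes in FPKM, linear), with 1 point per library coloured by group. ML3, with 9.57 FPKM of ciliated markers, held 0.52 FPKM of AQP5 and 0.195 FPKM of AQP9, while its AQP1 was 82.9 FPKM.

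AQP4, a water channel best known from glia of the brain and also present in several epithelia, was 11.6, 1.31 and 6.68 FPKM in MF1, MF2 and MF3, against 14.0, 2.06 and 0.104 FPKM in ML1, ML2 and ML3. It was 8.17, 1.52 and 2.58 FPKM in wF1, wF2 and wF3, against 12.4, 1.76 and 15.3 FPKM in wL1, wL2 and wL3. All groups overlapped, and the 4 libraries with high smooth muscle markers held 0.104 to 2.06 FPKM, against 1.31 to 15.3 FPKM in the other 8. The change between the phases was 0.14 (SE 1.03, adjusted p 0.956, limma), and −1.55 without the 4 libraries.

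The 3 AQP4 transcripts did not keep a fixed split. XM_012103244.2 held 30.7 to 79.1% of the gene in 10 libraries and 0 in ML3 and wF3. NM_001009279.1 held 99.5% in wF3, and XM_012103243.2 held 43.5% in wL3 and all of the 0.104 FPKM in ML3. XM_012103243.2 held at most 8.52% in the other 10 libraries.

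AQP11 and AQP8 were near the lower end of the table. AQP11, an aquaporin of intracellular membranes, was 0.365, 0.411 and 0.346 FPKM in MF1, MF2 and MF3, against 0.165, 0 and 0.268 FPKM in wF1, wF2 and wF3. In the luteal phase it was 0.537, 0.377 and 0.383 FPKM in ML1, ML2 and ML3, against 0.256, 0.226 and 0.222 FPKM in wL1, wL2 and wL3. All 6 BB libraries lay above all 6 ++ libraries, in both phases.

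The AQP11 change was 1.15 (SE 0.46, interval 0.12 to 2.17, unadjusted p 0.0314, adjusted p 0.997, limma) between MF and wF and 0.66 (SE 0.46, adjusted p 0.483, limma) between ML and wL. Pooled over phases, a comparison added after these values had been seen, it was 0.90 (SE 0.33, interval 0.18 to 1.63, unadjusted p 0.0194, adjusted p 0.994, limma), so AQP11 was not called. Groups of 6 BB and 6 ++ libraries did not overlap for 5 of 8676 genes, 0.0576%, of which AQP11 was 1. The level was low and was computed from 1 of the gene's 2 reference transcripts, and wF2 was listed at 0. Without wF2 the change between MF and wF was 0.60 (SE 0.34). Without the 4 libraries the changes were 0.60 between MF and wF, 0.91 between ML and wL and 0.76 between BB and ++.

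AQP8, also a water channel, stood at 0.107, 0 and 0 FPKM in MF1, MF2 and MF3, against 0.0375, 0.104 and 0.0333 FPKM in ML1, ML2 and ML3. It was listed at 0, 0 and 0.0455 FPKM in wF1, wF2 and wF3, against 0.0582, 0.0921 and 0 FPKM in wL1, wL2 and wL3. With a mean under 0.1 FPKM it was below the filter and was not tested.

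CFTR was low in most libraries and high in 1. Its level was 1.94, 1.14 and 0.793 FPKM in MF1, MF2 and MF3, against 0.91, 1.37 and 1.69 FPKM in ML1, ML2 and ML3. It was 9.31, 0.962 and 2.74 FPKM in wF1, wF2 and wF3, against 1.49, 2.01 and 0.957 FPKM in wL1, wL2 and wL3. wF1 was the highest, wF3 followed, and the remaining 10 libraries lay between 0.793 and 2.01 FPKM with all groups overlapping.

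The CFTR change was 0.999 (SE 0.68, interval −0.52 to 2.52, adjusted p 0.708, limma) between wF and wL and −1.22 (SE 0.68, adjusted p 0.997, limma) between MF and wF. Without wF1 they were 0.19 and −0.40, so most of both came with this library. Without ML2, ML3, wF2 and wL2, which leaves wF1 and wF3 in the wF group, they were 1.99 (SE 0.67, adjusted p 0.324, limma) and −1.98 (SE 0.61, adjusted p 0.911, limma). Pooled over genotypes, the CFTR change between the phases was 0.46 (SE 0.48, adjusted p 0.627, limma), and 1.19 (SE 0.51, adjusted p 0.273, limma) without the 4 libraries. Group means were 1.29 ± 0.590 FPKM in MF, 1.32 ± 0.393 FPKM in ML, 4.34 ± 4.40 FPKM in wF and 1.49 ± 0.527 FPKM in wL (SD, n = 3 each). The ratio of CFTR to EPCAM was highest in ML3, at 0.0238, followed by wF1 at 0.0193. In ML3 EPCAM was at its lowest, at 70.9 FPKM, and CFTR was 1.69 FPKM, within the range of the other libraries. CFTR was measured through 1 of its 3 reference transcripts.

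Over the 6 tested members, none was called in any comparison. Between MF and ML 0 of 6 were called, against 1.73% of all tested genes, and AQP5 alone had an unadjusted p under 0.05, against 25.5% of all tested genes. Between wF and wL 0 of 6 were called, against 0% of all genes, and 0 had an unadjusted p under 0.05, against 8.79%. In neither comparison did the members' count exceed the share over all genes. AQP5 was also the 1 member whose MF and ML libraries did not overlap, against 30.8% of all genes, and no member separated wF and wL, against 15.0%.

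Between MF and wF 0 of 6 were called, against 0.0231% of all genes, and 1, AQP11, had an unadjusted p under 0.05, against 3.15%, and groups that did not overlap, against 8.88%. Between ML and wL 0 of 6 were called, against 0% of all genes, 1 (AQP5) had an unadjusted p under 0.05, against 13.1%, and the groups did not overlap for 2 (AQP5 and AQP11), against 18.2%. For the pooled phases 0 of 6 were called, against 0.853% of all genes, and 1 (AQP5) had an unadjusted p under 0.05, against 20.0%. For the interaction the counts were 0 of 6, against 0.0115% called and 13.0% with an unadjusted p under 0.05. For BB against ++ 0 of 6 were called, against 0.0115% of all genes, and 1 (AQP11) had an unadjusted p under 0.05, against 3.19%.

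The median log2 change of the 6 tested members was 0.66 between MF and ML, against 0.06 over all tested genes, and −1.17 between ML and wL, against −0.16. It was −0.55 between wF and wL, against −0.12, and 0.32 between MF and wF, against 0.02. The members spread widely around these medians, with AQP5 at 3.88 and AQP1 at −0.41 between MF and ML.

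**Figure D5:**
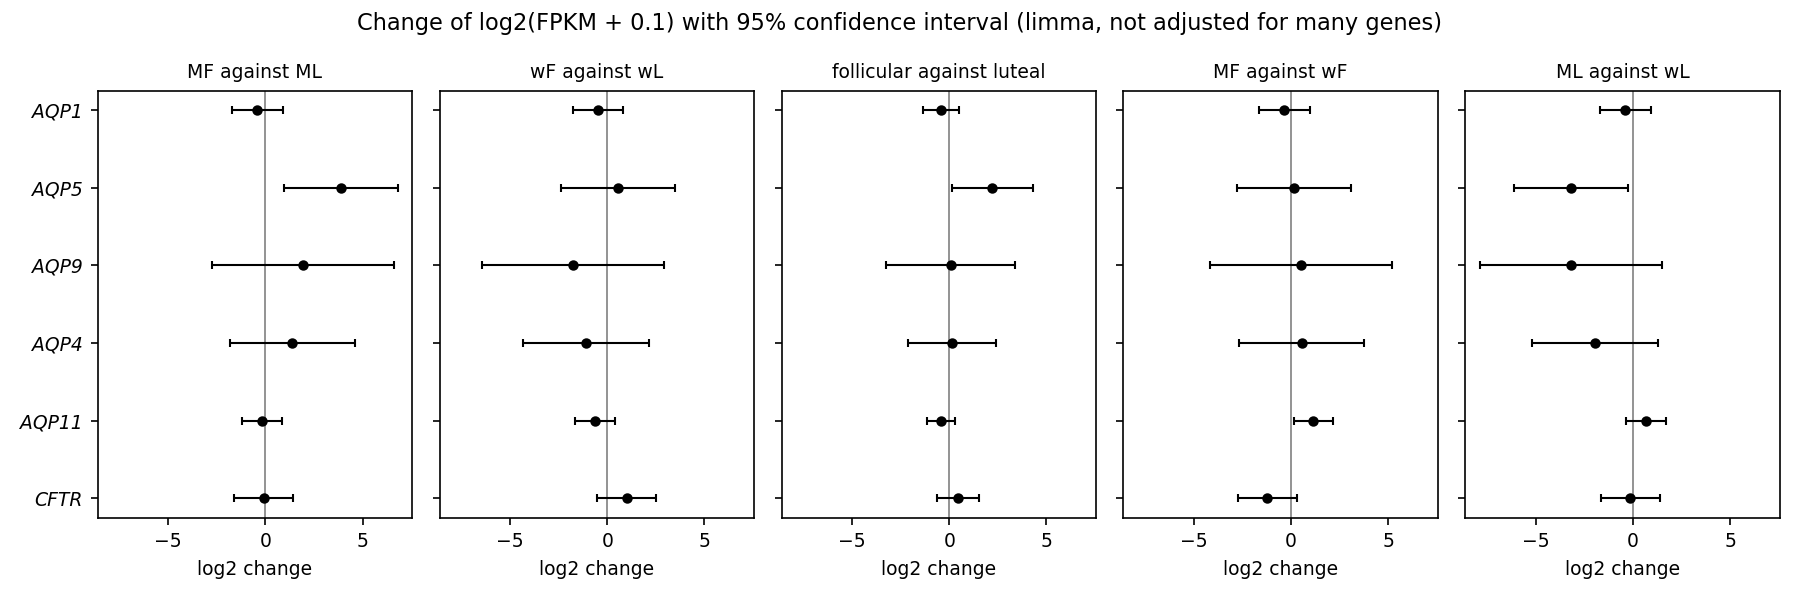
Log2 change of log2(FPKM + 0.1) (x axis) for the 6 tested members (y axis) in 5 comparisons, with the limma 95% confidence interval, which is not adjusted for the number of genes. The AQP5 intervals excluded 0 between MF and ML (0.95 to 6.81), between ML and wL and between the pooled phases, and the AQP11 interval excluded 0 between MF and wF (0.12 to 2.17).

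Genes with the pattern closest to a member were found by the root mean square difference of centred log2 values over 12 libraries, among 7389 genes with a mean of at least 1 FPKM. For AQP5 they were HKDC1, a hexokinase family member (0.480), SLC7A11, the cystine and glutamate exchanger (0.586), and CFAP144 (0.637). HKDC1 was 17.0, 7.93 and 10.1 FPKM in MF, against 5.26, 2.16 and 0 FPKM in ML. For AQP9 they were DYNLT4 (0.935), RSPH4A, a radial spoke protein of motile cilia (1.05), and SPATA18 (1.05), and for AQP4 they were HCAR2 (0.677), RHOV (0.721) and PITX1 (0.760). The nearest genes of AQP9 lay farther from it than those of AQP5 and AQP4 lay from theirs. All of these patterns share the same 12 libraries and the same low value in ML3.

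Partners in fluid transport were taken from 5 lists of ion transporters, other aquaporins, carbonic anhydrases and CFTR-anchoring or cAMP proteins, written with earlier results of these data known. Of 2 tested genes for chloride and bicarbonate transport (5 of 14 paired), 6 for sodium and potassium transport (6 of 10 paired), 2 carbonic anhydrases (3 of 7 paired), 8 CFTR-anchoring and cAMP genes (9 of 20 paired) and 3 other aquaporins (4 of 6 paired), 0 were called in either direction in any comparison with limma. Between MF and ML 2 genes of each of the first 4 lists and 1 other aquaporin had an unadjusted p under 0.05, against 25.5% of all tested genes, of which 1.73% were called, and in the other comparisons 0 to 2 genes of a list did. The median log2 change between MF and ML was 0.17, 0.96, 0.07, −0.22 and −0.66 for the lists in that order.

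SLC12A2, the basolateral sodium, potassium and chloride cotransporter that loads secretory cells with chloride, came closest. It was 57.8, 56.0 and 41.0 FPKM in MF1, MF2 and MF3, against 22.3, 23.6 and 8.25 FPKM in ML1, ML2 and ML3, and 57.8, 35.7 and 48.0 FPKM in wF1, wF2 and wF3, against 29.1, 17.0 and 43.8 FPKM in wL1, wL2 and wL3. MF and ML did not overlap, as for 30.8% of all tested genes, and wF and wL did. EPCAM was 362, 344 and 404 FPKM in MF1, MF2 and MF3, against 298, 152 and 70.9 FPKM in ML1, ML2 and ML3, so ML3 was lowest for both genes, and the part of epithelial content in SLC12A2 was not tested. The log2 change was 1.64 (SE 0.43, adjusted p 0.0703, limma) between MF and ML and 1.18 (SE 0.31, adjusted p 0.0808, limma) between the pooled phases, and 1.19 (SE 0.31, adjusted p 0.132, limma) and 0.87 (SE 0.20, adjusted p 0.106, limma) without the 4 libraries.

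ATP1B3, a beta subunit of the sodium pump, differed between MF and ML by 1.18 (SE 0.38, adjusted p 0.0999, limma). CA9, a membrane carbonic anhydrase, differed by 1.45 (SE 0.46, adjusted p 0.0992, limma), and SNAP23, a protein of vesicle fusion, by 0.95 (SE 0.27, adjusted p 0.0835, limma). None of these passed the threshold, and ML3 held the lowest value of each among the MF and ML libraries. Without the 4 libraries the changes were 0.71 for ATP1B3, 1.18 for CA9 and 0.60 for SNAP23.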

How the data were processed

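Total RNA was extracted from isthmus tissue of 12 ewes. By the authors' account, poly-A RNA was enriched and ribosomal RNA removed before the libraries were made and sequenced. The authors filtered reads with fastp, aligned them to Oar_v3.1 with HISAT2 and assembled transcripts with StringTie (versions not given in the sources used here). The authors deposited 1 table of FPKM for 43674 mRNA and 19969 lncRNA transcripts in 12 libraries. FPKM is already scaled by length and library, so the number of fragments behind a value is not given and tests for counts were not used. All columns were used.

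Transcripts were paired with genes by RefSeq accession through a newer sheep annotation used for names only: 853 with version, 14336 ignoring it and 13 by gene identifier, 34.8% of the mRNA transcripts, holding 67.6% of the mean mRNA FPKM. Gene sums are therefore incomplete. Groups were taken from the labels, and replicates are separate ewes. Python 3.11.15, pandas 2.3.3, numpy 2.4.6, matplotlib 3.10.9, R 4.3.3 and limma 3.58.1 were used. Genes with a mean of at least 0.1 FPKM were fitted as log2(FPKM + 0.1) with 4 group means over 12 libraries (limma with trend, 2-sided), after the steps were tested on simulated data. Calls needed an adjusted p under 0.05 with a log2 change of 1 or more in size.

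The members and the lists were chosen with earlier results of these data known. Named are all members and their paired transcripts, at most 3 tested genes per list and comparison of smallest adjusted p, and for members with a mean of at least 1 FPKM and an SD of at least 1 the 3 genes of most similar pattern. All ratios fall outside this rule and were chosen after the values were seen. Some genes of the lists are not reported here. The comparison of BB with ++ over both phases, a smooth muscle covariate and fits of list genes without 4 libraries were also added after seeing the data. Other added values, filters, normalizations, transcript choices, a replicate block and fits without single libraries were tried.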

Additional observations from a re-analysis of the deposited data

How the results depend on the processing

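All 127 counts of called members under alternative settings were 0. Of 325 log2 changes recomputed for 18 results, 303 kept their direction, 22 turned it and 0 were called. Each library is from a separate ewe, and the labels name no pairing by replicate number. With the group means removed, same-numbered libraries of different groups correlated at −0.19 to 0.39, which does not settle whether they were paired. A replicate block left 0 members called (AQP5 between MF and ML 3.88, SE 1.22, limma adjusted p 0.108).

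The change of AQP9 between MF and ML turned to −1.53 without ML2, ML3, wF2 and wL2, to −0.90 with a smooth muscle covariate, and ranged over −1.06 to 3.65 with single libraries left out. Its change between the phases was −0.23 with an added value of 1, −0.16 after quantile normalization, −0.11 with equal FPKM sums, −1.23 without the 4 libraries, −0.48 with the covariate, and −1.42 to 0.94 with single libraries left out. For AQP4 between the phases these were −0.12 with an added value of 1, −0.029 with equal sums, −1.55, −0.25 and −0.65 to 0.88. AQP1 between BB and ++ was 0.16 and AQP10 between MF and ML was 0.20 without the 4 libraries. The cause was not tested.

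With single libraries left out, AQP5 ranged over 1.89 to 5.21 between MF and ML, lowest without ML3, and over 1.22 to 2.88 between the phases. With the smooth muscle covariate, AQP5 changed by 2.32 between MF and ML (SE 1.37, unadjusted p 0.124, adjusted p 0.422, limma). The AQP5 change with the covariate was 1.51 (SE 1.23, adjusted p 0.700, limma) between wF and wL. Between the phases it was 1.91 (SE 0.82, unadjusted p 0.0432, adjusted p 0.193, limma). AQP11 between MF and wF ranged over 0.60 to 1.54, and was 0.27 with an added value of 1. With a minimum mean of 1 FPKM, AQP11 was not fitted. With 3 ewes a group and no fragment counts, small changes of low genes such as AQP11, AQP8 and CFTR were not resolved.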

Other observations

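Of the other aquaporins, AQP10, an aquaglyceroporin, was 1.10 FPKM in ML2 and 5.96 FPKM in ML3, and at most 0.133 FPKM in the other 10 libraries. Its log2 change between MF and ML was −2.97 (SE 1.14, adjusted p 0.147, limma), which was not called. ML2 and ML3 are among the 4 libraries that stood apart in smooth muscle and epithelial markers, and without ML2, ML3, wF2 and wL2 the change was 0.20 (SE 0.52, adjusted p 0.864, limma). ML3 thus held the highest AQP10 and the lowest AQP4, AQP5 and AQP9 of the 12 libraries. AQP2, the water channel of the kidney collecting duct, lay between 0.0718 and 0.598 FPKM.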
